A study of Mus musculus with 4 samples.

Results

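Deletion of the short arm of human chromosome 1 at band 1p36 is among the most frequent lesions of neuroblastoma, the childhood tumour of the sympathetic nervous system, and several genes in the deleted interval have been put forward as suppressors of the tumour. The mouse orthologues of 8 of them are described here, Chd5, Camta1, Casz1, Arid1a, Ajap1, Cdc42, Runx3 and Trp73, chosen by name out of 22180 genes measured. All 8 had at least 1 probe set that the platform annotation assigns to a single gene. Cdc42 and Chd5 had 2 probe sets each, and the one with the higher mean was used. All 8 genes lie on mouse chromosome 4, in the order Arid1a, Runx3, Cdc42, Casz1, Camta1, Chd5, Ajap1 and Trp73 towards its end, in a stretch whose gene content is largely conserved with human 1p36.

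The samples were 4 primary tumours of 1 group, each hybridised to a 1-colour Affymetrix array. Each was Stat6-/- and carried mutant Alk together with the TH-MYCN transgene, in mice bred from C57BL/6 and 129Sv/J. TH-MYCN mice express human MYCN from the tyrosine hydroxylase promoter, which is active in sympathetic cells. No tumours with intact Stat6, wild-type Alk or no transgene were analysed here, so no gene was compared between genotypes and no p-value is given. The labels give neither the age of the animals nor whether each tumour came from a separate animal.

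The 8 genes act at different levels of the cell. Chd5 and Arid1a encode subunits of chromatin remodelling complexes, the first a helicase of neural tissues that can join the NuRD complex, the second a DNA-binding subunit of the SWI/SNF (BAF) complex. Casz1, Runx3, Trp73 and Camta1 encode transcription factors: a zinc finger protein of neural and cardiac differentiation, a Runt factor of sensory neurons and cytotoxic lymphocytes, a relative of p53 with full-length and truncated isoforms, and a calmodulin-binding activator. Cdc42 is a small GTPase that directs actin and cell polarity, including neurite outgrowth, and Ajap1 is a membrane protein of adherens junctions. In human tumours CHD5, RUNX3, TP73 and CASZ1 are known for silencing without mutation, by promoter methylation or by repressive chromatin, which acts on the sequence around a start site.

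The sequences below are the 250 bases before a RefSeq transcript start, taken from the promoter table of GRCm38.p6 and printed 5′ to 3′ on the strand of the gene. Ajap1 and Cdc42 are shown as the genes with the most and the fewest CpG dinucleotides in their richest window, Chd5 as a detected gene, and Runx3 for its 2 starts, which differ in CpG content. Capitals mark CpG dinucleotides in the first 4 sequences. In the last, they mark the Runt-factor core TGTGGT, read there on the opposite strand.
Ajap1, chr4:153482831-153483080, minus strand: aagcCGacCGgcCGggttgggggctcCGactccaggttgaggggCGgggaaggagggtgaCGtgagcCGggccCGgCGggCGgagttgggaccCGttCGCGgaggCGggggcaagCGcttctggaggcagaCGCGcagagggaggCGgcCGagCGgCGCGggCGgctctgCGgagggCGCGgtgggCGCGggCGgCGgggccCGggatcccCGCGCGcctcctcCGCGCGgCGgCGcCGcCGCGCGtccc
Cdc42, chr4:137357760-137358009, minus strand: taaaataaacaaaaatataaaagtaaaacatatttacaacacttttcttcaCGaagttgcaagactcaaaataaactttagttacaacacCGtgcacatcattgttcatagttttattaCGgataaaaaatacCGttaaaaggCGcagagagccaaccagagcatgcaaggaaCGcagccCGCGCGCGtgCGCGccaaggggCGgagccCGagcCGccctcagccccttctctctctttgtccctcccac
Chd5, chr4:152338401-152338650, plus strand: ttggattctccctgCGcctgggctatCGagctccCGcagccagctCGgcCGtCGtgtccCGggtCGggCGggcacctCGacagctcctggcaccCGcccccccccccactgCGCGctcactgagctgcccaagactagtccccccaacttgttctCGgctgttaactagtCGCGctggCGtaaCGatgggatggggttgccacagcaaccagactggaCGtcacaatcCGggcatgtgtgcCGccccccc
Runx3 downstream start, chr4:135152295-135152544, plus strand: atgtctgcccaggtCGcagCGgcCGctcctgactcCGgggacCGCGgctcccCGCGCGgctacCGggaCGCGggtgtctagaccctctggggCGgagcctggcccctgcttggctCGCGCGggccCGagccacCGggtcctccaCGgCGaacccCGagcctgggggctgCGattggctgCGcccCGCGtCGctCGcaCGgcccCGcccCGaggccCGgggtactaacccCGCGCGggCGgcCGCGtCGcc
Runx3 upstream start, chr4:135120395-135120644, plus strand: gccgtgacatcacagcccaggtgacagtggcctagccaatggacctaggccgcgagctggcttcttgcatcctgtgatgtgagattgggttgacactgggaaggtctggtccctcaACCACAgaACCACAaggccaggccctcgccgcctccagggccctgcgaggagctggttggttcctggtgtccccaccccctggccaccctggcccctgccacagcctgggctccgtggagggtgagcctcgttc

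These windows held 43, 15, 21, 38 and 8 CpG dinucleotides in the order printed. The Ajap1 window is almost a continuous CpG island. The Cdc42 window is A and T rich with its CpGs gathered in the stretch next to the start. The upstream Runx3 window has the fewest CpGs of those printed.

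Cdc42, Arid1a, Camta1 and Chd5 were detected in all 4 tumours, and Casz1, Runx3, Ajap1 and Trp73 in none. Detection was defined by a floor, a log2 value of 6.17, that the 4-tumour mean of a gene had to pass. The floor is the 95th percentile of the means of 1374 genes for odorant and pheromone receptors, chosen as genes silent in a tumour. By this rule 4 of the 8 genes were detected, against 40.4% of all measured genes, so their share is close to the background. A probe set's brightness reflects its own probes, so levels are not ranked between genes. A gene under the floor may still be expressed, and in a bulk tumour fewer cells of a type and less RNA per cell cannot be told apart.

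Among the GTPase and remodelling genes, Cdc42 measured 11.55, 11.58, 11.36 and 11.41 in tumours 1 to 4, a mean of 11.47 ± 0.11 (SD, n = 4, log2 units). All 4 values lay above every receptor gene. Its second probe set measured 4.73 ± 0.30 (SD, n = 4) and was under the floor in all 4 tumours. The platform numbers probe sets in blocks by strand, and of the 20 nearest probe sets in that numbering, 20 belong to genes on the strand of Cdc42 for the brighter probe set and 0 for the dimmer one. The strand that each one reads was not given in the labels or files.

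Arid1a measured 9.59, 9.51, 9.41 and 9.47 in tumours 1 to 4, a mean of 9.50 ± 0.08 (SD, n = 4). Its range over the tumours was 0.19 (1.14-fold), the smallest of the 8 in the deposited values, and 9.63% of detected genes had a smaller range. That place depends on the scaling: with array medians equalised the range of Arid1a was 0.29 and that of Runx3 0.19. Camta1 measured 8.53, 8.54, 8.37 and 8.25, a mean of 8.42 ± 0.14 (SD, n = 4). Tumours 1 and 2 lay above tumours 3 and 4 for Camta1, as they did for Cdc42 and Arid1a.

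Chd5 had the opposite order. It measured 6.89 in tumour 1, 6.80 in tumour 2, 7.17 in tumour 3 and 7.11 in tumour 4, a mean of 6.99 ± 0.18 (SD, n = 4). It lay 0.82 log2 units above the floor and above 1352 of the 1374 receptor genes, and it did not pass a floor at the 99th percentile of the receptor genes. The second Chd5 probe set stood at 4.66 ± 0.09 (SD, n = 4), under the floor throughout. Of its 20 nearest probe sets in the platform's numbering, 1 belongs to a gene on the strand of Chd5, against 19 for the brighter probe set.

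Among the transcription factor and junction genes under the floor, Casz1 measured 5.84, 5.16, 5.05 and 5.58 in tumours 1 to 4, a mean of 5.41 ± 0.37 (SD, n = 4), above 1186 of the 1374 receptor genes. Tumours 1 and 4 were higher than tumours 2 and 3. Its range of 0.78 (1.72-fold) was the widest of the 8.

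Runx3 measured 4.68, 4.53, 4.73 and 4.80 in tumours 1 to 4, a mean of 4.69 ± 0.12 (SD, n = 4). Ajap1 measured 4.49, 4.18, 4.10 and 4.08, a mean of 4.21 ± 0.19, and Trp73 measured 4.06, 4.31, 4.20 and 4.24, a mean of 4.20 ± 0.10 (SD, n = 4). Ajap1 exceeded 800 and Trp73 795 of the receptor genes, so both sat near the middle of the background distribution. No value of these 3 genes in any tumour came within 1 log2 unit of the floor.

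**Figure D1:**
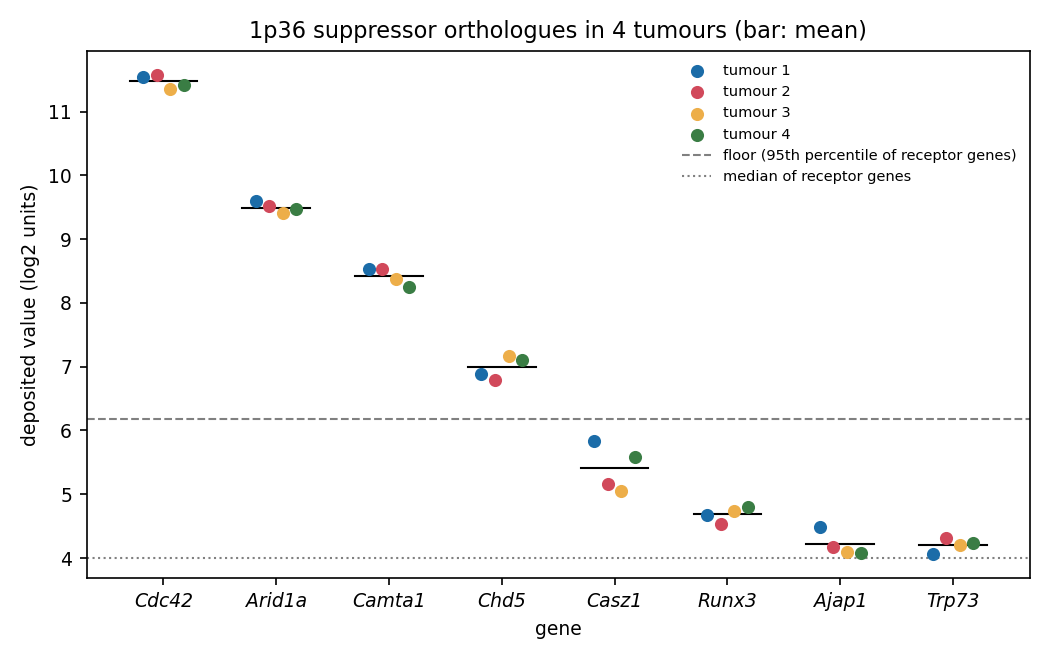
Deposited value (log2 units) of each of the 8 genes in each tumour, with a bar at the 4-tumour mean, the floor as a dashed line and the receptor gene median as a dotted line. Cdc42, Arid1a, Camta1 and Chd5 lie above the floor of 6.17 in every tumour and the other 4 genes below it.

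None of the 8 genes varied 2-fold. The criterion for a variable gene was a difference of at least 1 log2 unit between its highest and lowest tumour, which 4.27% of detected genes did. Of the 4 detected genes 0 did, and their ranges ran from 0.19 to 0.37, where the median detected gene had 0.41. The 4 genes under the floor had ranges from 0.25 to 0.78.

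Part of this small variation was shared with other genes of the same level. The deposited arrays differ by a small offset that depends on signal: the median deviation of detected genes from their own means was 0.12, 0.04, -0.09 and -0.08 in tumours 1 to 4, while the receptor genes had medians of 3.85, 3.95, 4.10 and 4.10. Each gene was therefore also set against the median deviation of the 1109 genes of like mean level, its bin out of 20 equal bins. After that subtraction the range of Cdc42 was 0.08, that of Arid1a 0.15 and that of Camta1 0.13. These 3 genes thus deviated from genes of like level by little in any tumour.

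For Chd5 the subtraction widened the range to 0.49, since genes of its level deviated by 0.13, 0.03, -0.08 and -0.09 in tumours 1 to 4 and Chd5 moved the other way. It stood at -0.23 and -0.22 in tumours 1 and 2 and at 0.26 and 0.20 in tumours 3 and 4 relative to them. The range of Chd5 in the deposited values, 0.37, lay below the median range of 0.43 for genes at that level. The median range after subtraction is not given here. The order of Chd5 over the tumours was the reverse of its level class. The receptor gene medians, 3.85, 3.95, 4.10 and 4.10, likewise had tumours 1 and 2 below tumours 3 and 4. The part of background signal in the Chd5 values was not tested. Runx3 and Trp73 were left with ranges of 0.22 and 0.19, near those of Arid1a and Camta1. Casz1 kept 0.82, with 0.48 in tumour 1, -0.21 in tumour 2, -0.34 in tumour 3 and 0.09 in tumour 4. Ajap1 was left with 0.60, its highest value again in tumour 1, at 0.38.

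**Figure D2:**
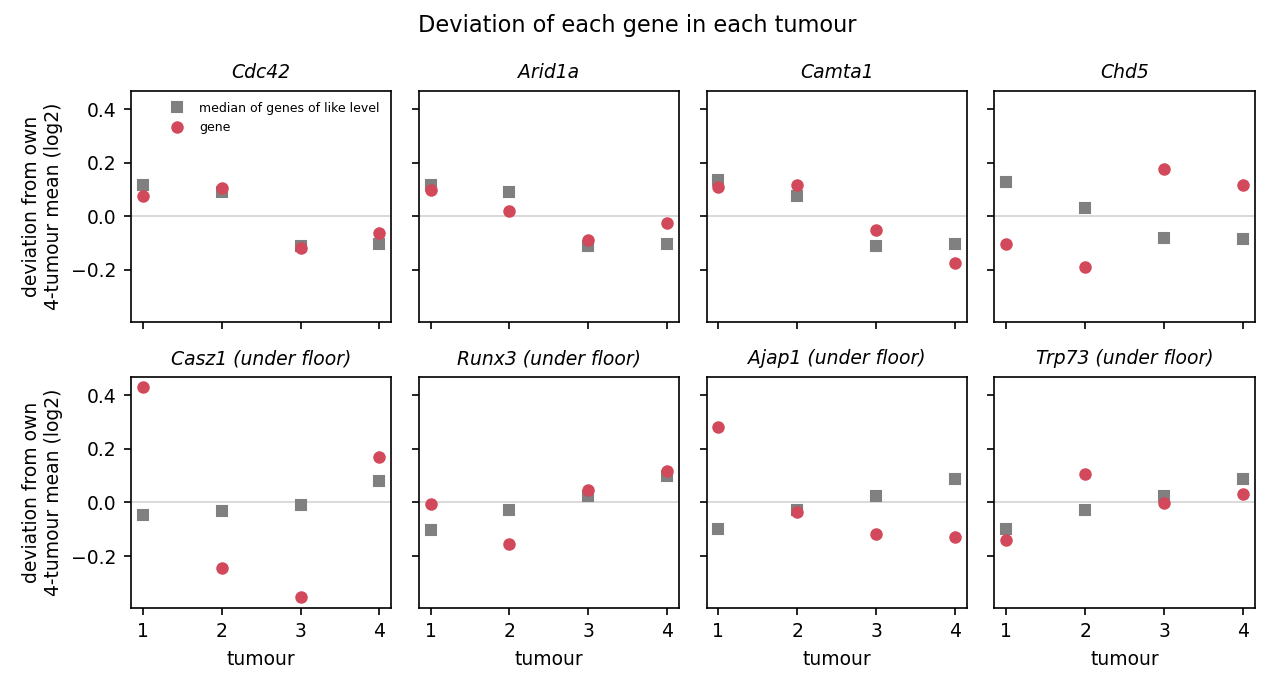
Deviation of each gene from its own 4-tumour mean (log2 units, circles) in tumours 1 to 4, with the median deviation of genes of like mean level as squares. Cdc42, Arid1a and Camta1 follow the squares, Chd5 runs against them, and Casz1 deviates most, by 0.43 in tumour 1 without subtraction.

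Along the chromosome, both genes next to Chd5 shared its order, lower in tumours 1 and 2 than in tumours 3 and 4. The nearest measured gene before it, Rpl22, which encodes a ribosomal protein, measured 6.53, 6.44, 6.83 and 6.71 in tumours 1 to 4. The nearest after it, Kcnab2, an auxiliary subunit of voltage-gated potassium channels and itself among the other genes of human 1p36, measured 6.64, 6.55, 7.08 and 7.10. Relative to genes of like level, Rpl22 stood at -0.21, -0.19, 0.25 and 0.14 and Kcnab2 at -0.32, -0.33, 0.32 and 0.34 in tumours 1 to 4.

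The order was not limited to this place. Of the 16 genes that flank the 8, 9 were detected and Rpl22 and Kcnab2 were the 2 of them with this order, which 9.23% of all detected genes had. Of the 7 flanking genes under the floor 4 had it, Wnt4, Gm572, Gm833 and BC039966, and so did 34.9% of all genes under the floor, where the receptor genes as a group run the same way.

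The detected neighbours of Camta1 and Arid1a had other orders. Vamp3, a vesicle fusion protein next to Camta1, ran from 8.70 in tumour 2 to 7.91 in tumour 4, and Dnajc11, on its other side, from 7.73 in tumour 1 to 7.33 in tumour 3. Dhdds, which makes dolichol and lies next to Arid1a, was highest in tumour 1, at 7.95, and lay between 7.61 and 7.71 elsewhere, and Pigv, before Arid1a, was under the floor at 5.85 ± 0.08 (SD, n = 4). Cdc42 lies between Wnt4 and Cela3a, both under the floor, at 4.85 ± 0.14 and 3.68 ± 0.11 (SD, n = 4).

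Genes under the floor had detected neighbours. Runx3 lies between Syf2, a splicing factor at 7.21 ± 0.31, and Clic4, a chloride channel protein at 8.84 ± 0.22 (SD, n = 4). Casz1 is followed by Pex14, a peroxisomal import factor at 7.17 ± 0.11, and Trp73 by Wrap73, a centrosomal protein at 6.44 ± 0.16 (SD, n = 4). Runx3, Casz1 and Trp73 thus had a detected gene beside them. Ajap1 had none, with Gm833 at 4.97 ± 0.11 and BC039966 at 4.12 ± 0.12 (SD, n = 4) on its 2 sides, both under the floor.

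The stretch as a whole, from Arid1a to the last gene of chromosome 4, held 360 measured genes, of which 134 were detected (37.2%) and 3 of those variable (2.24%). The shift of the stretch in a tumour was taken as the median deviation of its detected genes minus that of all detected genes. It was -0.01 in tumour 1, -0.04 in tumour 2, 0.05 in tumour 3 and 0.03 in tumour 4. Single genes scattered around these medians with SDs of 0.16 to 0.21, and 83 of 134 genes were lower in tumour 2, 81 of 134 higher in tumour 3 and 82 of 134 higher in tumour 4. The rest of chromosome 4, with 413 detected genes, had shifts between -0.01 and 0.01.

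Small as they are, the shifts in tumours 2, 3 and 4 lay outside those of the 17 autosomes other than 3 and 4, which ran from -0.01 to 0.04 in tumour 2, from -0.03 to 0.02 in tumour 3 and from -0.04 to 0.01 in tumour 4. The stretch holds fewer detected genes than any of these chromosomes, so its median is less precise, and without tumour 2 the shift in tumour 3 was 0.01. The parts of the stretch differed. From Arid1a to Runx3, over 11 detected genes, the shifts were 0.01, -0.03, -0.003 and -0.01 in tumours 1 to 4. From Runx3 to Cdc42, over 17, they were 0.02, 0.01, -0.04 and -0.02. Between Cdc42 and Casz1, where 54 detected genes lie, they were -0.05, -0.07, 0.08 and 0.09. From Casz1 to Camta1, over 14, they were 0.02, 0.03, 0.05 and 0.04. From Camta1 to Chd5, over 7, they were -0.02, 0.02, 0.02 and -0.06. Over the 2 detected genes from Chd5 to Ajap1 the shifts were -0.27, -0.29, 0.29 and 0.27. From Trp73 to the end, over 29 detected genes, they were 0.04, -0.04, 0.01 and 0.02. Chromosome 3 shows what a whole chromosome that sets a tumour apart looks like on these arrays: its shift was 0.28 in tumour 4, with 403 of 433 detected genes higher, and -0.12 to -0.08 in the other tumours. A shift is measured against the 4-tumour mean, so a loss or gain common to all 4 tumours would not appear in it. DNA copy number was not analysed here.

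**Figure D3:**
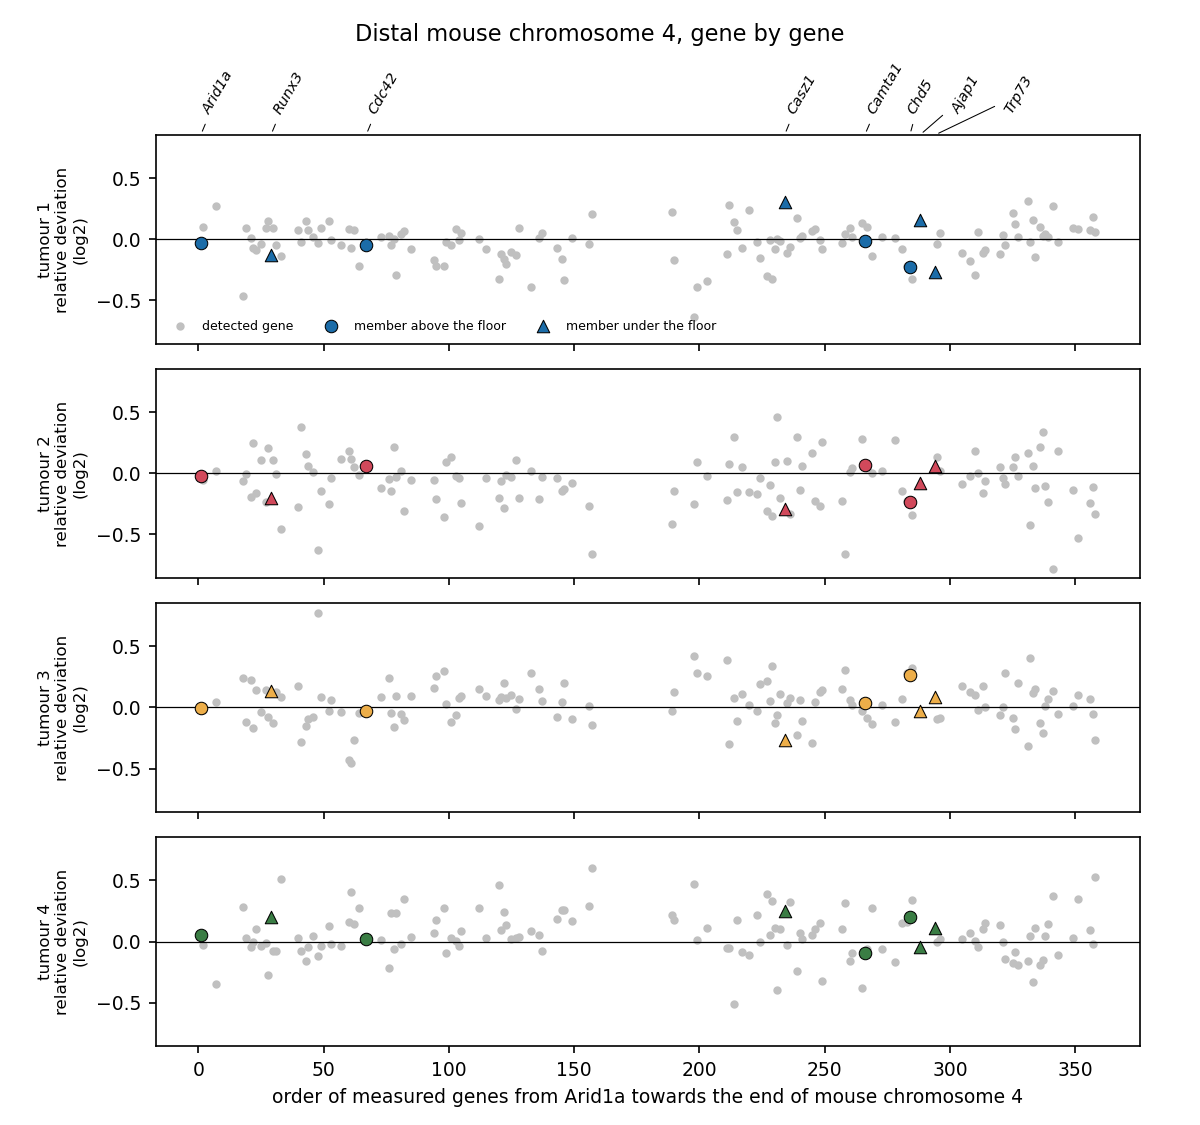
Deviation of each detected gene from its own mean minus the array offset (log2 units) in each tumour, in gene order from Arid1a to the end of mouse chromosome 4, with the 8 genes in colour (circles above the floor, triangles below). Detected genes scatter around 0 in all 4 tumours with SDs of 0.16 to 0.21, and Chd5 lies below 0 in tumours 1 and 2 and above it in tumours 3 and 4.

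**Figure D4:**
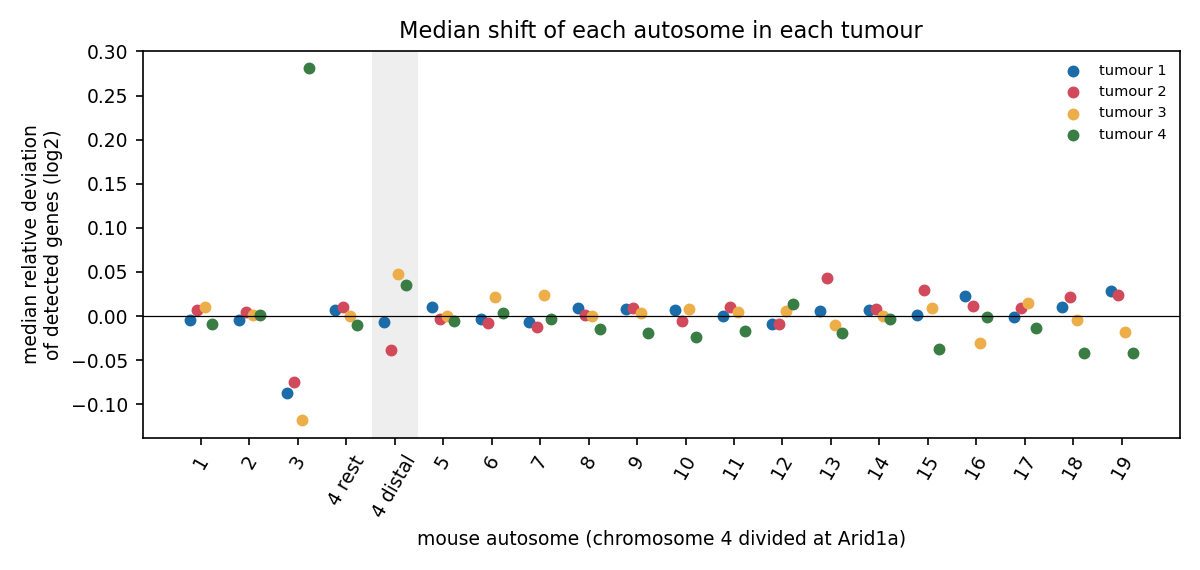
Median relative deviation of the detected genes of each mouse autosome in each tumour (log2 units), with chromosome 4 divided at Arid1a. The distal part of chromosome 4 (shaded) lies between -0.04 and 0.05, and chromosome 3 stands at 0.28 in tumour 4.

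Other genes were taken from a list of 40 orthologues picked by hand for human 1p36. Of these 38 were measured and 25 were above the floor, against 37.2% of all genes of the stretch and 40.4% of all measured genes. Ncdn, counted in the 25, lies outside the stretch, and no human gene positions were used here to check the list. Among the 25, Kif1b, an axonal kinesin, measured 9.45 ± 0.10 (SD, n = 4). One detected gene was variable, Id3, an inhibitor of basic helix-loop-helix factors, with 6.64, 5.96, 7.23 and 6.35 in tumours 1 to 4. Sdhb is a subunit of succinate dehydrogenase and a tumour suppressor of the related paraganglioma. Its deposited values were nearly constant at 7.99 ± 0.01 (SD, n = 4). Relative to the median detected gene Sdhb stood at -0.12, -0.06, 0.09 and 0.09 in tumours 1 to 4, so its steadiness depends on the scaling. Pgd, an enzyme of the pentose phosphate pathway, measured 8.19 and 8.23 in tumours 1 and 2 and 7.58 and 7.57 in tumours 3 and 4. Of the 25 detected genes, 17 were lower in tumour 2 and 19 higher in tumour 3 than the median detected gene, and the medians were -0.01, -0.10, 0.06 and 0.06 in tumours 1 to 4. By construction the same median over all detected genes is 0.

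For the complexes that Chd5 and Arid1a belong to, as for the lists after them, counts stand against 40.4% of all measured genes detected and 4.27% of detected genes variable. RNA of all 20 members of the CHD family and NuRD list was detected and 0 were variable. Among the paralogues of Chd5, Chd4, the usual NuRD helicase, measured 9.31 ± 0.06 and Chd3 8.02 ± 0.11 (SD, n = 4). Hdac2, a NuRD deacetylase, had the widest range of the list, 0.65, from 9.82 in tumour 2 to 9.17 in tumour 3. Gatad2a, a scaffold subunit, had the narrowest, 0.08. Relative to the median detected gene, Chd4 stood at -0.11, -0.12, 0.09 and 0.14 in tumours 1 to 4. Its deposited values, 9.33, 9.24, 9.31 and 9.37, did not have the order of Chd5, since tumour 1 lay above tumour 3. Chd3 stood at 0.14 in tumour 3 and at -0.07 in tumour 4 relative to the same median.

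Of 28 members of the BAF list 26 were measured and 24 detected, and 0 were variable. Arid1b, the subunit that takes the place of Arid1a in alternative complexes, measured 8.35 ± 0.11 (SD, n = 4), with a range of 0.26. Smarcc1, a core scaffold subunit, had the narrowest range, 0.09. Phf10, a subunit of the form of the complex found in neural progenitors, ran from 7.97 in tumour 1 to 7.08 in tumour 4. Actl6b, the neuron-specific actin-like subunit, was highest in tumour 1, at 8.32, and lay between 7.71 and 7.93 elsewhere. Bcl11a, a zinc finger factor associated with the complex, ran from 8.66 in tumour 2 to 7.88 in tumour 4.

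The cycle that Cdc42 runs through had 26 of 39 measured members detected, where the share over all genes was 40.4%, and 1 of the 26 was variable, where it was 4.27%. Dock10, an exchange factor that loads Cdc42 with GTP, measured 6.80, 7.87, 6.48 and 5.94 in tumours 1 to 4, a spread of 1.93 log2 units (3.81-fold). It was high in tumour 2 and under the floor in tumour 4, while Cdc42 itself spanned 0.22. Fnbp1l, an effector that couples Cdc42 to membrane curvature, measured 8.69, 8.48, 8.14 and 9.04 in tumours 1 to 4. Cdc42se1, a small effector protein, measured 7.59, 7.41, 7.36 and 8.12, so both were highest in tumour 4. Both genes lie on chromosome 3. Cdc42bpa, a kinase effector, had a range of 0.20. Of the close GTPase relatives, Rac1 measured 10.38 ± 0.14, Rhoq 7.55 ± 0.26 and Rhoj, an endothelial relative, 6.40 ± 0.30 (SD, n = 4). Rhoq was lowest in tumour 4, at 7.17, with the other tumours between 7.65 and 7.74.

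Camta2, the paralogue of Camta1, was detected at 7.02 ± 0.14 (SD, n = 4). Of 8 measured genes of calmodulin signalling, 5 were detected and 0 were variable. All 5 lay under the median detected gene in tumour 2, with a median of -0.23, and 4 of 5 lay above it in each other tumour. Camk2d, a calmodulin-dependent kinase, was lowest in tumour 2, at 8.62, with the other tumours between 8.86 and 8.90. Camta1 did not share this, standing at 0.07 in tumour 2.

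Of 12 measured partners and targets of Runx3 10 were detected, where the share over all genes was 40.4%. Cbfb, the subunit that every Runt factor needs to bind DNA firmly, measured 8.09 ± 0.03 (SD, n = 4). In the deposited values it was one of the steadiest genes of its list. Relative to the median detected gene Cbfb stood at -0.14, -0.03, 0.06 and 0.11 in tumours 1 to 4. Runx1 stood at 4.58 ± 0.11 (SD, n = 4), under the floor like Runx3. Ntrk3, the neurotrophin-3 receptor and a gene that Runx3 regulates in sensory neurons, was variable, with 7.26, 6.30, 6.24 and 7.27 in tumours 1 to 4. It was high in the same 2 tumours as Casz1, tumours 1 and 4. Bcl2l11, which encodes the death-inducing protein BIM, was highest in tumour 3, at 7.48, and lay between 6.70 and 6.81 elsewhere. Cytotoxic lymphocytes are among the other cells known to express Runx3. Of 16 measured T and NK cell markers 1 was detected, Prf1, perforin, at 6.50 ± 0.26 (SD, n = 4). The list averaged between 4.50 and 4.72 over the tumours. The part of any cell type in the Runx3 values was not tested.

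In the p53 family, Trp63 stood at 4.67 ± 0.10 (SD, n = 4), under the floor like Trp73, and Trp53 was not analysed here. Of 12 measured family members and shared targets 6 were detected and 0 were variable. Cdkn1a, the cell cycle inhibitor p21, measured 8.86, 9.44, 8.72 and 9.09 in tumours 1 to 4. Ccng1, cyclin G1, followed the same order, with 9.38, 9.88, 9.33 and 9.57. Both were highest in tumour 2. Mdm4, an inhibitor of p53, measured 8.40 ± 0.17 (SD, n = 4) and was lowest there, at 8.20.

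Ajap1 and its paralogue Pianp were both under the floor, with Pianp at 5.93 ± 0.16 (SD, n = 4), 6.16 in tumour 1 and 5.82 to 5.87 in the others. Of 10 measured junction genes 7 were detected and 0 were variable. Among them Ctnnb1, beta-catenin, measured 9.37 ± 0.12, Cdh2, the neural cadherin, 9.02 ± 0.23 and Bsg, basigin, a reported binding partner of AJAP1, 10.18 ± 0.17 (SD, n = 4).

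Of 12 measured differentiation genes linked to CASZ1 in human neuroblastoma cells 11 were detected, where the share over all genes was 40.4%, and 0 were variable, where it was 4.27%. All 11 lay above the median detected gene in tumour 4, by a median of 0.22, and 10 of 11 lay below it in tumour 2. In tumour 1, where Casz1 was highest, 9 of 11 lay below it. In tumour 3 the median of the list was -0.01. There Casz1 stood at -0.27 relative to the median detected gene and at -0.34 relative to genes of like level. In tumour 4 these 2 values for Casz1 were 0.25 and 0.09. The general sympathoadrenal markers, which share 5 measured genes with the list, had a similar course, their median standing at -0.06 in tumour 1, -0.22 in tumour 2, 0.03 in tumour 3 and 0.24 in tumour 4. Dbh, which makes noradrenaline, ran from 10.28 in tumour 2 to 11.07 in tumour 4. Map2, a dendritic microtubule protein, was nearly constant in the deposited values at 10.00 ± 0.05 (SD, n = 4). Relative to the median detected gene Map2 stood at -0.08, -0.12, 0.11 and 0.10 in tumours 1 to 4.

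By the likeness of their 4 deviations, the detected genes nearest to Chd5 were Ptgis, Tspan9 and Prr22, at Euclidean distances of 0.03 log2 units, on chromosomes 2, 6 and 17. Their values ran from 6.02 in Tspan9 to 6.52 in Prr22, around the floor of 6.17. The detected genes nearest to Camta1 were Zfp189, Coasy and Wdr48, at distances of 0.002 to 0.01, on chromosomes 4, 11 and 9. With 4 tumours and 8961 detected genes such near matches are easily found, and they are given as a description.

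The promoter windows of the 8 genes were mostly rich in CpG. The table held 13 windows for them, 1 or 2 a gene, and 11 of the 13 had more CpG dinucleotides than the median of all 32841 windows, which was 6, whereas 46.3% of all windows did. The 2 Chd5 windows, which begin at 152338401 and 152338404, are almost the same sequence, and both are among the 11. The genes under the floor were no poorer in CpG than the detected ones. In the richest window of each gene, Ajap1 had 43, Runx3 38, Trp73 31 and Casz1 27, and the detected genes had 33 for Arid1a, 22 for Chd5, 18 for Camta1 and 15 for Cdc42. Over all measured genes the order was the other way, with a median of 18 in 7124 detected genes and 5 in 9862 genes under the floor. Of the genes under the floor, 93.8% had fewer CpG than Casz1 and 99.6% fewer than Ajap1. Methylation was not measured.

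Casz1, Runx3 and Trp73 each had a second window with fewer CpG, 2, 8 and 6, which belongs to another transcript start. The 8 of Runx3 is above the median of all windows, 6, and that window is among the 11. The sequence of the upstream Runx3 start, printed above, carries the core TGTGGT 2 times on the opposite strand, as ACCACA. This core, searched on both strands, was in 1 of the 13 windows and in 14.0% of all windows. The E-box CACGTG, which reads the same on both strands and is bound by MYC proteins, was in 0 of the 13 and in 6.02% of all windows. The GC box GGGCGG, on either strand and allowed to overlap itself, was in 9 of the 13 and in 32.7% of all windows. Both of the overlapping Chd5 windows are among the 9. The labels and files do not say which start the probe sets read.

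**Figure D5:**
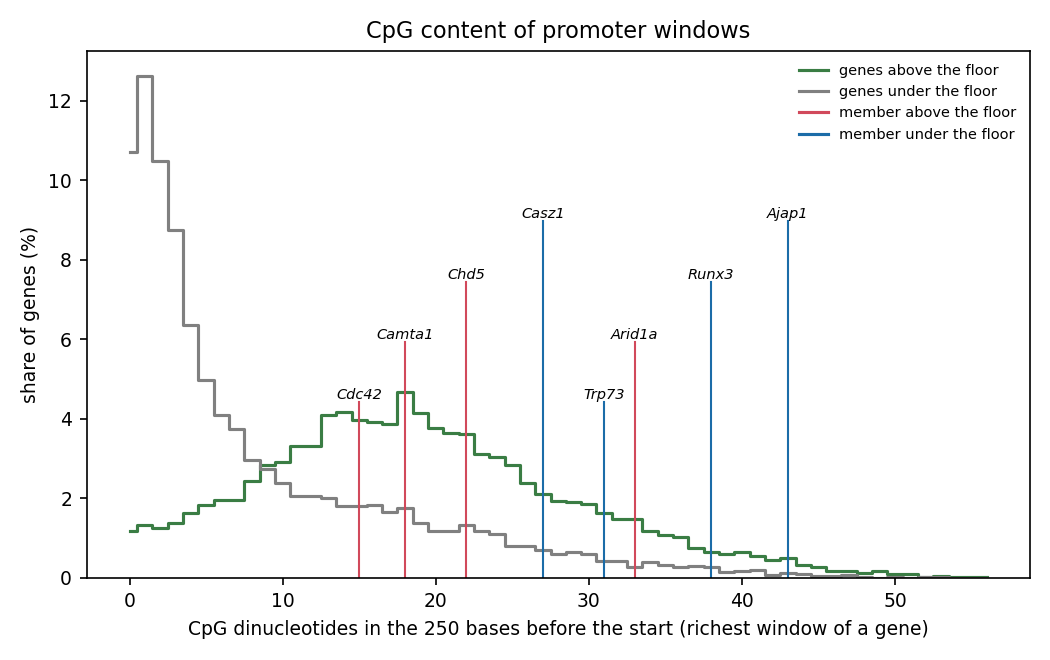
Share of genes (%) by the number of CpG dinucleotides in the 250 bases before the start, taking the richest window of each gene, for genes above and under the floor, with the 8 genes as vertical lines whose height has no meaning. The 4 genes under the floor have 27 to 43, in the upper tail of both curves.

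As to the samples themselves, 14 of 14 measured sympathoadrenal markers were detected, and 0 of 12 skeletal muscle markers, although the labels name a neck muscle as the tissue. Xist was at 10.13 in tumour 4 and no higher than 3.95 elsewhere, and Uty, on the Y chromosome, at 3.89 in tumour 4 and no lower than 7.24 elsewhere, so tumour 4 read as female and the others as male. Fibroblast markers were highest in tumour 1, with a median of 0.43 over 8 detected genes, and macrophage markers lowest in tumour 3, at -0.44 over 10. Of 8 measured Schwann cell markers 2 were detected, Fabp7 and Pmp22, and the list averaged 6.22 in tumour 1 and 5.63 to 5.83 in the others. Fabp7 measured 9.54, 8.49, 6.49 and 8.32 in tumours 1 to 4, and Sox10 was under the floor in all 4. Casz1 and Ajap1 were highest in tumour 1 as well, and the part of these cells in their values was not tested.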

How the data were processed

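Trizol RNA of 4 tumours was hybridised as biotin-labelled cDNA, 1 array each, per the labels' protocols. The deposited values, taken as log2 here because they run from 2.47 to 13.6 and no base is stated, were made by the authors with RMA and Partek, per the submitters' processing notes, without versions or settings. They were used as deposited. No 2 arrays shared more than 0.215% of their values, and the tumours are numbered in record order.

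Of 41345 probe sets, 23521 are assigned to 1 gene by the platform annotation. Symbols were updated by Entrez identifier to RefSeq names of GRCm38.p6 (23328 matched, 193 did not), the table that also gave gene order. No source used here gives the array's genome build. The highest of several probe sets stood for a gene. The 8 genes and all lists were chosen with earlier results of these data known. Named genes were the 8 genes, their paralogues and chromosomal neighbours, the 3 widest and 2 narrowest detected genes of each list, and the 3 nearest patterns of Chd5 and Camta1. Ncdn, Kif1b, Xist, Kdm5d and Sox10 are named outside this rule, after their values were seen. The median shift was tested on simulated data. Python 3.11.15, numpy 2.4.6 and pandas 2.3.3 were used. Settings varied were the floor, normalization, probe set rule, range threshold, centring and each tumour left out. The number of arrays limits the precision.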

Additional observations from a re-analysis of the deposited data

Results flagged for a closer look

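In 13 of 126 values examined, 1 tumour stood farther from the other 3 than Dixon's 95% critical value of 0.829 allows for 4 samples. Chance alone marks about 1 in 20 such sets of 4 where they are not chosen by their spread. Genes named for the widest or narrowest range of a list were examined here, and other list genes were left out. That rate therefore does not apply to the 13 values. None of the 8 genes was marked, Ajap1 coming nearest with a ratio of 0.773. Of these 13, 12 are genes and 1 is the shift of a chromosome.

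In tumour 4, Xist stood at 10.13, against 3.89 to 3.95 elsewhere. Eif2s3y measured 3.90 there against 7.47 to 7.89, Uty 3.89 against 7.24 to 7.58 and Kdm5d 3.45 against 6.71 to 7.33. The median shift of chromosome 3 was 0.28 in tumour 4 and -0.12 to -0.08 in the others.

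Among the relatives and neighbours of the 8 genes, Rhoq measured 7.17 in tumour 4 against 7.65 to 7.74. Wnt4, next to Cdc42, measured 5.05 in tumour 4 against 4.76 to 4.80, under the floor throughout. Pianp measured 6.16 in tumour 1 against 5.82 to 5.87. Camk2d measured 8.62 in tumour 2 against 8.86 to 8.90. Tumour 3 was set apart in 4 genes. Mbd2, a NuRD subunit that binds methylated DNA, measured 7.93 there against 7.84 in the others, and Bcl2l11 measured 7.48 against 6.70 to 6.81. Tle1, a corepressor of Runt factors, measured 7.15 against 7.42 to 7.45, and Tubb3, neuronal tubulin, 11.08 against 11.43 to 11.50.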

How the results depend on the processing

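The count of detected genes was 4 with array medians equalised, after a further quantile normalization, with a 90th percentile floor and without any 1 tumour. It was 3 with a 99th percentile floor and with the mean of the probe sets of a gene, both times because Chd5 dropped out, the 99th percentile lying above its level and its second probe set lowering its mean to 5.82. The count of variable genes was 0 under every setting, a range threshold of 0.5 and no floor included. These last settings were not combined, and Casz1, under the floor, had a range of 0.78. The shift of distal chromosome 4 was -0.03 to -0.004 in tumour 1, -0.07 to -0.03 in tumour 2, 0.0055 to 0.056 in tumour 3 and 0.03 to 0.06 in tumour 4 when 1 other tumour was left out, the lowest value for tumour 3 being that without tumour 2. With no floor it was -0.02, -0.02, 0.02 and 0.03 in tumours 1 to 4. Of 120 means and ranges of single genes recomputed, 11 moved by more than the SD between tumours. Among them were the mean and range of Cdc42, 8.10 and 0.39 with the mean of its probe sets, against 11.47 and 0.22. The range of Camta1, 0.15 after quantile normalization, and that of Arid1a, 0.29 with array medians equalised, were others. The subtraction of genes of like level was chosen after seeing the data. No paired analysis was possible because there is 1 group.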
